A study of Homo sapiens with 12 samples.

Results

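The comparison described here is that of ANLN knockdown with its control 24 h after transfection, across all genes of the 24 h count table. It was made from the siANLN and siNC libraries of that time, 3 of each, which are 6 of the 12 samples in the series. All were KYSE150 cells, an established cell line from a squamous cell carcinoma of the oesophagus. The siANLN group received a small interfering RNA (siRNA) against ANLN and the siNC group a control siRNA, and the labels give the genotypes as ANLN knockdown and WT. The labels mention 1 siRNA per arm and 1 cell line. Any effect of the ANLN siRNA other than on ANLN therefore cannot be told apart from the loss of ANLN. Each change is of siANLN over siNC, so a transcript lowered by the control siRNA would also appear as a rise. Such effects of the control siRNA cannot be told apart here either. The other 6 samples are the same pair of groups at 48 h, with their own libraries and controls. The labels call the libraries biological replicates but do not say whether they were separate transfections, so the p-values below measure the spread between these libraries.

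ANLN encodes anillin, a scaffold protein that binds actin, myosin and septins at the contractile ring of dividing cells, and that is also found in the nucleus between divisions. An siRNA is loaded into an Argonaute protein and guides it to transcripts with a matching sequence, which are then cut. Short matches to the first bases of the guide can also lower other transcripts, in the manner of a microRNA. No siRNA sequence is given in the sources used here.

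Many of the transcripts that changed most share short stretches of sequence, which are shown before the values. An earlier look at these data picked a pair of 7-base words, TCGGAGA and CGGAGAA, by the rise of the genes that hold them, and a second pair, TTCCCAA and TCCCAAA, by the fall of theirs. Since the changes chose the words, what follows on them is a description and tests nothing. The words of a pair overlap by 6 bases, so that an 8-base stretch such as TCGGAGAA counts as 2 sites. One transcript per gene was searched, on its sense strand alone, in the GENCODE release 29 annotation of GRCh38. Each line below gives 30 bases around a site, 5′ to 3′ along the transcript, with the word in capitals. The first 6 are from genes that rose and the other 6 from genes that fell.
HABP4, 3′ UTR, chr9:96490459-96490488, plus strand: cagctgagtttTCGGAGAccaagaaattaa
TPM4, 3′ UTR, chr19:16101482-16101511, plus strand: aatattttgtaTCGGAGAAgctttgagcac
NOLC1, 3′ UTR, chr10:102162293-102162322, plus strand: aagggtgatgaTCGGAGActacttactttc
G3BP2, 3′ UTR, chr4:75644092-75644121, minus strand: tactgcaatttTCGGAGAAaagaacagcag
OGFR, coding sequence, chr20:62813159-62813188, plus strand: ctgggagcccaTCGGAGAccccaggcccca
ZNF616, coding sequence, chr19:52115613-52115642, minus strand: cttgcagtgcaTCGGAGAAttcatactgga
ERGIC1, 3′ UTR, chr5:172951329-172951358, plus strand: aaagatggtacTTCCCAAgcaagcccctat
C5orf15, 3′ UTR, chr5:133956440-133956469, minus strand: atttttttttgTTCCCAAActgtaatgtac
UAP1, 3′ UTR, chr1:162599501-162599530, plus strand: ctattgcaaacTTCCCAAgatccagatgac
GTF3C2, 3′ UTR, chr2:27325877-27325906, minus strand: ctatcatgtgtTTCCCAAAtcttctctaga
CANX, 3′ UTR, chr5:179730396-179730425, plus strand: catagcagactTTCCCAAAtgtattgatta
KRT5, 3′ UTR, chr12:52514662-52514691, minus strand: aacccaaagttTTCCCAAAtctaaatcatc

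ANLN itself was the check of the labels. Its level was 911, 886 and 879 CPM (read counts put on a common library size by TMM scaling) in the siNC libraries and 110, 98.5 and 102 CPM in the siANLN libraries. The log2 change was −3.11 (SE 0.04, edgeR Benjamini-Hochberg adjusted p = 1.3e-66). The opposite strand of the ANLN locus carries KIAA0895, whose own level was 9.55% of that of ANLN and whose log2 change was 0.10. Total counts ran from 14891932 to 17921808 per library. The first principal component, with 29.3% of the variance, separated the groups, and the second, with 19.9%, spread the siANLN libraries from −18.5 to 20.4. Squamous epithelial markers were present, and those of other cell types were low. The summed level of 8 fibroblast markers was 5.91 to 7.20 CPM in siNC and 5.50 to 5.85 CPM in siANLN, and COL1A2 and PDGFRA had no count. Most of that sum was COL1A1, at 6.01 CPM in siNC and 5.06 CPM in siANLN. The sums of 6 endothelial, 8 leukocyte and 6 columnar or glandular markers stayed between 0.129 and 1.88 CPM in every library, with TEK, PTPRC, KRT20 and CDX2 at 0.

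At 24 h the response was broad and shallow. Of 14698 genes tested, 1585 passed an edgeR Benjamini-Hochberg adjusted p of 0.05, or 10.8%. Higher in siANLN were 871 genes (5.93%), and lower were 714 (4.86%). The median log2 change was 0.26 among the risers and −0.25 among the fallers. At least a 1.2-fold change was seen in 432 risers and 329 fallers, at least a 1.5-fold change in 91 and 61, and at least a 2-fold change in 27 and 14. Among the called genes 1530 (96.5%) had siANLN and siNC libraries that did not overlap, against 25.6% of all genes tested. A test on the authors' FPKM with limma called 839 genes or 822, depending on the pseudocount.

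Calls were concentrated in well-covered genes. Of genes with a mean of more than 100 CPM, 12.1% rose and 10.2% fell, whereas between 1 and 5 CPM 0.586% rose and 1.06% fell. Protein-coding genes supplied 847 risers (7.04% of those tested) and 691 fallers (5.75%). All gene lists described below hold protein-coding genes alone. Of 2674 genes of other types, 24 rose (0.898%) and 23 fell (0.860%), beside 5.93% and 4.86% of all genes. The part of level in this was not tested.

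**Figure D1:**
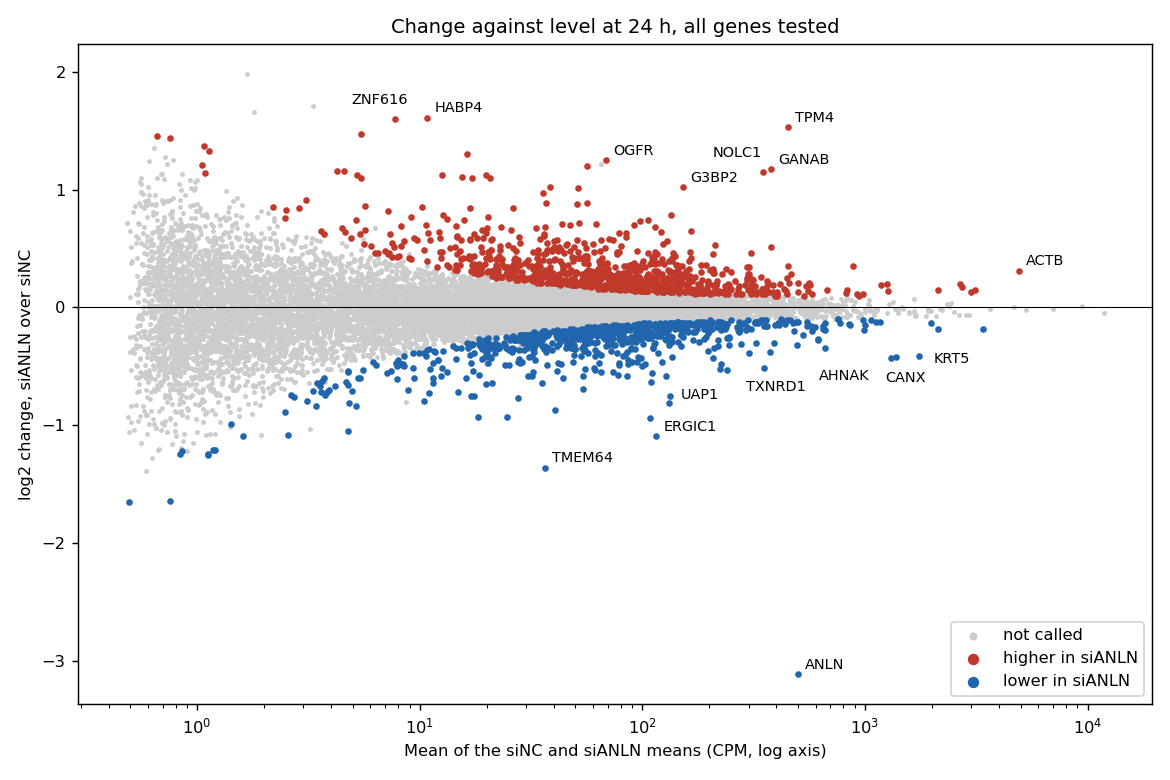
Change against level at 24 h. Each point is 1 of the 14698 genes tested, with the mean of both group means in CPM on a log axis and the log2 change of siANLN over siNC. Called genes are red (871 higher) or blue (714 lower). ANLN lies alone at −3.11, and the calls reach smaller changes at higher levels.

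The largest rise among the actin-filament binding proteins listed was that of TPM4, a tropomyosin that winds along actin filaments (ENSG00000167460, GRCh38 chromosome 19, 16067021 to 16103005, plus strand). Its level was 236, 232 and 229 CPM in siNC and 670, 682 and 659 CPM in siANLN. The groups lay far apart, with a log2 change of 1.53 (SE 0.04, edgeR adjusted p = 4.3e-49). The other tropomyosin genes were looked up after their values were seen. TPM1 had a log2 change of 0.07, TPM2 of −0.09 and TPM3 of 0.06, with edgeR adjusted p of 0.60, 0.87 and 0.29. The difference between them and TPM4 was not tested. ACTB, cytoplasmic beta-actin, rose from 4278, 4601 and 4279 CPM to 5242, 5563 and 5456 CPM (log2 0.31, SE 0.03, edgeR adjusted p = 1.5e-11). ACTG1, the gamma form, rose by less, at a log2 change of 0.17. Both actins have many processed pseudogenes, which leaves their levels uncertain.

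Of 57 tested genes for actin-filament binding proteins, 6 rose (10.5%) and 8 fell (14.0%), and the median log2 change was −0.015. Over all genes 5.93% rose and 4.86% fell, with a median of −0.005. WDR1, which speeds filament disassembly with cofilin, rose (log2 0.33). LIMA1, which stabilises filaments, and GSN, the severing protein gelsolin, fell (log2 −0.31 and −0.32). Among 26 genes of septins and the RhoA module, which act with anillin at the cleavage furrow, 1 rose and 0 fell. The riser was MYH9, the heavy chain of non-muscle myosin II (log2 0.15, edgeR adjusted p = 5.3e-04), and its call was lost with limma on FPKM. RHOA and DIAPH1 had log2 changes of −0.00 and 0.07, with edgeR adjusted p of 0.98 and 0.23.

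Several further rises were those of single genes for RNA-binding or nucleolar proteins, grouped here without forming a list. Of 36 SR proteins and hnRNPs, 2 rose and 2 fell (5.56% each), with a median log2 change of −0.043. Of 49 DEAD-box and DEAH-box helicases, 5 rose and 5 fell (10.2% each). Over all genes tested 5.93% rose and 4.86% fell, and above 100 CPM 12.1% and 10.2%. NOLC1, a nucleolar phosphoprotein that acts in the assembly of small nucleolar RNPs, was at 217, 216 and 216 CPM in siNC and at 482, 479 and 480 CPM in siANLN. The SD was 0.536 CPM in siNC and 1.19 CPM in siANLN, and the log2 change was 1.15 (SE 0.04, edgeR adjusted p = 5.4e-41). G3BP2, a stress-granule protein, went from 104, 101 and 97.7 CPM to 211, 196 and 206 CPM (log2 1.02, SE 0.04, edgeR adjusted p = 5.9e-33). Its paralogue G3BP1, looked up after its value was seen, had a fall of log2 −0.13 (edgeR adjusted p = 0.0031). HABP4, which binds RNA and hyaluronan, had the largest log2 rise of the 20 at 1.61 (SE 0.13, edgeR adjusted p = 4.8e-17). Its level was low, at 5.67, 5.87 and 4.40 CPM in siNC and 15.1, 17.4 and 16.3 CPM in siANLN. HABP4 overlaps CDC14B on the opposite strand, which was at 401% of its level and had a log2 change of −0.01.

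Of 23 tested genes for small RNA and mRNA decay factors, 4 rose (17.4%, beside 5.93% of all genes) and 3 fell (13.0%, beside 4.86%). DCP2, the enzyme that removes the mRNA cap, rose from 73.7 ± 0.743 to 122 ± 5.53 CPM (mean ± SD, n = 3 each, log2 0.73, edgeR adjusted p = 1.6e-21). TNRC6A, the GW182 protein that recruits silencing factors to Argonaute, fell from 132 ± 5.61 to 89.6 ± 0.273 CPM (log2 −0.56, edgeR adjusted p = 4.3e-17). DCP1A, a partner of DCP2, fell (log2 −0.22), and AGO1 rose (log2 0.19), a call that was lost without siNC replicate 2 (edgeR adjusted p = 0.075) and with limma on FPKM (adjusted p = 0.12 with either pseudocount).

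Some transcripts for proteins of the endoplasmic reticulum, its quality control and membrane traffic changed, in both directions. GANAB, the catalytic subunit of glucosidase II, rose from 225, 229 and 248 CPM to 534, 524 and 520 CPM (log2 1.17, SE 0.04, edgeR adjusted p = 1.7e-40). PRKCSH, its regulatory partner, had a log2 change of −0.06 (edgeR adjusted p = 0.37). CANX, the lectin chaperone calnexin that binds the trimmed glycans, fell from 1605, 1561 and 1563 CPM to 1187, 1146 and 1192 CPM (log2 −0.42, SE 0.03, edgeR adjusted p = 8.8e-18). Over the 36 tested genes of N-glycan trimming and glycoprotein folding, 1 rose (2.78%, beside 5.93% of all genes) and 2 fell (5.56%, beside 4.86%). The median log2 change of the list was −0.001, so the large moves of GANAB and CANX were not those of the list. MESD, a chaperone of LDL-receptor family proteins, rose from 34.2 ± 2.08 to 78.4 ± 4.74 CPM, a 2.29-fold rise (edgeR adjusted p = 3.4e-27). STX12, an endosomal syntaxin, rose from 12.6 ± 1.24 to 27.3 ± 1.34 CPM (log2 1.12).

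ERGIC1, which cycles between endoplasmic reticulum and Golgi, was the largest fall among genes above 100 CPM in siNC other than ANLN. It stood at 153, 153 and 164 CPM in siNC and 74.0, 71.3 and 74.9 CPM in siANLN (log2 −1.09, SE 0.05, edgeR adjusted p = 9.8e-33). In the list of 46 genes of transport between these compartments, 6 fell (13.0%, beside 4.86% of all genes) and 2 rose (4.35%, beside 5.93%). Fallers included the cargo receptors TMED9 (log2 −0.26) and TMED10 (log2 −0.18). GOLGA2, a Golgi matrix protein, rose (log2 0.28). The median of the list was 0.014, so most of its members did not share the fall.

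Other genes with large rises have roles that do not form a list. OGFR, the opioid growth factor receptor, rose from 39.5, 41.9 and 41.2 CPM to 94.7, 98.8 and 97.8 CPM (log2 1.25, SE 0.05, edgeR adjusted p = 3.3e-31). ZW10, a kinetochore and membrane-tethering protein, rose from 34.0 ± 1.45 to 68.3 ± 3.17 CPM (log2 1.01, SE 0.06, edgeR adjusted p = 9.4e-23). RGS19, a regulator of G-protein signalling, rose from 11.0 ± 1.77 to 23.5 ± 0.150 CPM. GPR89A, an anion channel of the Golgi, went from 8.01 ± 1.31 to 17.3 ± 0.922 CPM, but it has a near-identical copy, GPR89B, and its value is uncertain. The same holds for the cancer-testis gene MAGEA2B, which was at 3.86, 2.12 and 2.78 CPM in siNC and 4.98, 10.2 and 8.94 CPM in siANLN. These groups did not overlap, but the siANLN libraries spread widely.

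**Figure D2:**
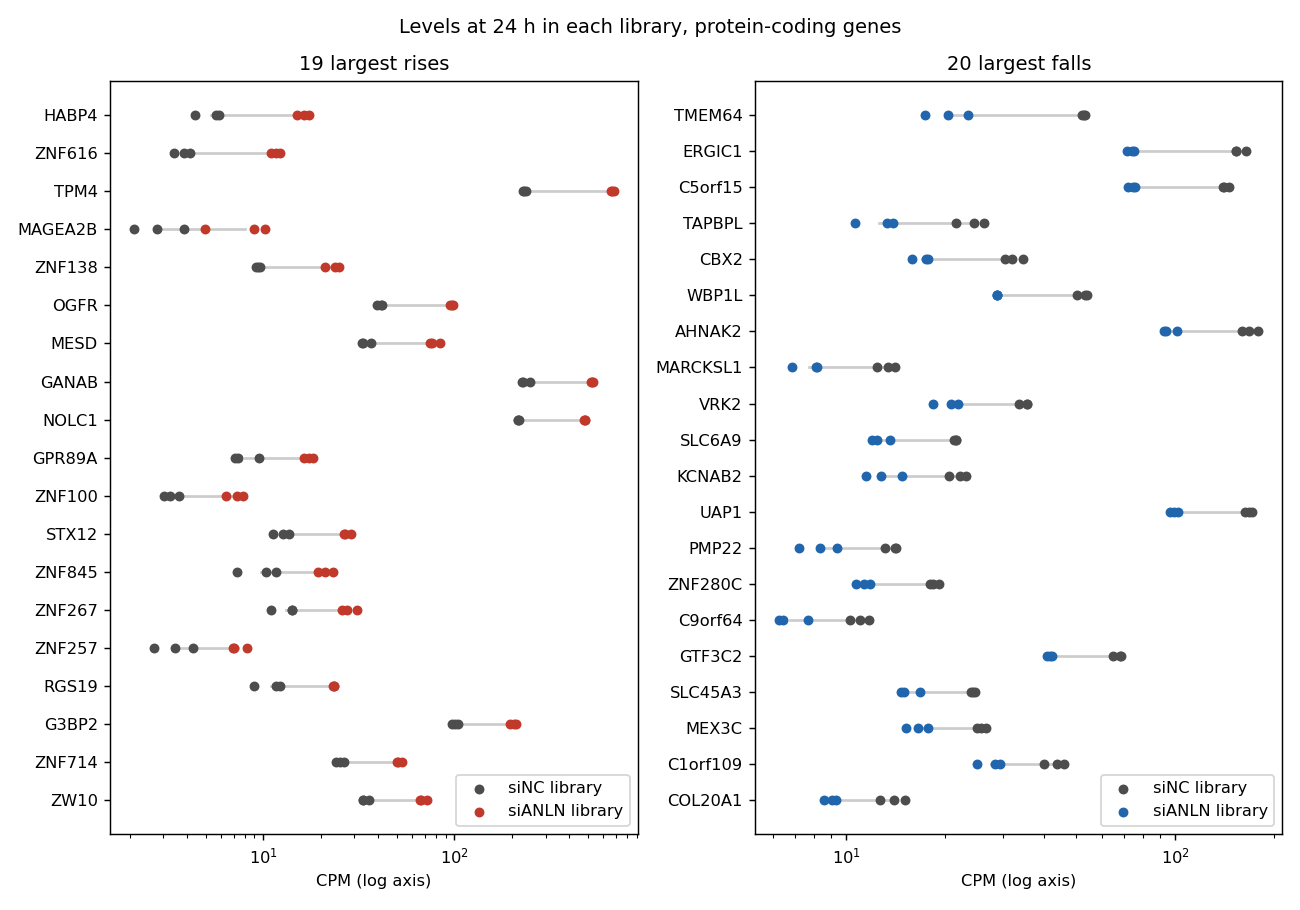
Levels of the 19 largest rises (left) and 20 largest falls (right) at 24 h among called coding genes that averaged 5 CPM or more, in CPM on a log axis. Grey points are the 3 siNC libraries, coloured points the 3 siANLN libraries, and the line joins the group means. In all 39 genes the groups do not overlap, by the rule that chose them.

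Zinc finger genes named ZNF supplied the most risers of the families listed. Most encode DNA-binding repressors with many C2H2 fingers. Of 355 tested, 72 rose (20.3%, beside 5.93% of all genes) and 7 fell (1.97%, beside 4.86%). Their median log2 change was 0.105, and 70.7% lay above 0, against 48.7% of all genes. The risers' changes ran from 0.19 to 1.60 with a median of 0.52, and 71 of the 72 had no overlap between the groups, beside 96.5% of all called genes. The family was not highly covered, with a median of 15.2 CPM against 25.4 CPM over all genes. Its count of risers was 46 or 45 with limma on FPKM.

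ZNF genes rose both on chromosome 19, where many lie in clusters, and elsewhere. On chromosome 19, 33 of 148 rose (22.3%), and on other chromosomes 39 of 207 rose (18.8%). Of the 833 other genes tested on chromosome 19, 6.12% rose, and of all genes outside the family 5.57%. ZNF616, on chromosome 19, was at 3.86, 4.13 and 3.43 CPM in siNC and 11.0, 12.2 and 11.6 CPM in siANLN (log2 1.60, SE 0.15, edgeR adjusted p = 4.1e-14). ZNF714 rose from 25.1, 26.5 and 24.1 CPM to 53.0, 50.3 and 51.0 CPM (log2 1.02, SE 0.07, edgeR adjusted p = 1.6e-20). ZNF267, on chromosome 16, rose from 13.1 ± 1.78 to 28.1 ± 2.65 CPM, and ZNF664 from 65.5, 70.8 and 74.9 CPM to 110, 111 and 121 CPM. ZNF280C fell the most of the family, from 18.0, 18.3 and 19.1 CPM to 11.8, 10.7 and 11.3 CPM (log2 −0.72). Many ZNF genes have close paralogues next to them, and how the authors' counting divided reads between such copies was not tested.

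The falls reached regulators of chromatin, transcription and RNA. CBX2, a Polycomb subunit that binds methylated histone H3, fell from 34.5, 30.3 and 31.9 CPM to 17.5, 15.8 and 17.7 CPM (log2 −0.93, SE 0.08, edgeR adjusted p = 1.9e-14). Over 35 Polycomb genes, 5 rose (14.3%) and 4 fell (11.4%), beside 5.93% and 4.86% of all genes. KDM2B, which brings a Polycomb complex to CpG islands, rose from 25.7 ± 1.28 to 41.0 ± 2.76 CPM (log2 0.67), and MTF2 and PCGF6 also rose (log2 0.33 and 0.34). KDM2B overlaps RNF34 on the opposite strand, which was at 194% of its level and had a log2 change of −0.22. GTF3C2, a subunit of the RNA polymerase III factor TFIIIC, fell from 64.7, 67.8 and 68.5 CPM to 40.8, 42.3 and 41.6 CPM (log2 −0.69, SE 0.06, edgeR adjusted p = 1.0e-15). VRK2, a nuclear-envelope and ER kinase, fell from 34.8 ± 1.19 to 20.4 ± 1.80 CPM. VRK2 overlaps FANCL on the opposite strand, which was at 107% of its level and had a log2 change of −0.23. MEX3C, an RNA-binding ubiquitin ligase, fell by 0.64 on the log2 scale.

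Further large falls were those of genes with other roles. TMEM64, a multi-pass membrane protein, had the largest fall after ANLN among genes of at least 5 CPM, from 52.9, 52.0 and 53.2 CPM to 17.4, 23.4 and 20.4 CPM (log2 −1.36, SE 0.08, edgeR adjusted p = 1.2e-24). C5orf15, whose protein is little described, fell from 146, 141 and 140 CPM to 71.7, 74.6 and 75.5 CPM (log2 −0.94, SE 0.05, edgeR adjusted p = 9.2e-29). WBP1L, a membrane protein with a WW-domain binding motif, fell from 53.2, 50.3 and 53.8 CPM to 28.7 CPM in each siANLN library. The groups of these 3 genes were well apart. UAP1, which makes UDP-N-acetylglucosamine, fell from 168, 163 and 171 CPM to 99.1, 96.3 and 102 CPM (log2 −0.75, SE 0.04, edgeR adjusted p = 1.1e-24). TXNRD1, cytosolic thioredoxin reductase, fell from 411, 413 and 420 CPM to 301, 285 and 285 CPM (log2 −0.51, SE 0.04, edgeR adjusted p = 3.0e-20).

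Of 209 solute carriers, 16 rose (7.66%) and 17 fell (8.13%), beside 5.93% and 4.86% of all genes. The creatine transporter SLC6A8 rose from 174 ± 6.98 to 251 ± 13.8 CPM, and the glucose transporter SLC2A3 from 137 ± 4.90 to 190 ± 12.3 CPM. The glycine transporter SLC6A9 fell by 0.75 on the log2 scale and SLC45A3 by 0.65. SLC7A5, the large neutral amino acid transporter, fell by 0.18. SLC6A9 overlaps CCDC24 on the opposite strand (67.7% of its level, log2 −0.02), and KCNAB2, a potassium channel subunit that also fell by 0.75, overlaps NPHP4 (82.6%, log2 0.07).

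Keratin and AHNAK transcripts fell at high coverage. KRT5, a basal keratin, went from 1969, 1934 and 2078 CPM to 1546, 1480 and 1472 CPM (log2 −0.41, SE 0.03, edgeR adjusted p = 8.0e-17), and its partner KRT14 fell by 0.34. Of the 10 squamous epithelial markers, 7 fell (70.0%, beside 4.86% of all genes) and 1 rose, and their median log2 change was −0.160. The riser was PERP, a desmosome-associated protein (log2 0.34), while TP63 and DSG3 had log2 changes of −0.03 and −0.11 that did not pass (edgeR adjusted p = 0.76 and 0.22). Their summed level was 4736 to 4981 CPM in siNC and 3974 to 4068 CPM in siANLN. In a bulk sample, fewer cells of a kind and less RNA per cell cannot be told apart. AHNAK fell from 1492, 1433 and 1578 CPM to 1178, 1055 and 1116 CPM (log2 −0.43), and its giant paralogue AHNAK2 from 167, 159 and 179 CPM to 101, 94.0 and 92.3 CPM (log2 −0.81).

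On the scale of reads gained or lost, which does not divide by gene length, ACTB gained 1034 CPM and TPM4 438 CPM. HSP90AA1, an inducible cytosolic chaperone, gained 361 CPM, from 2480 ± 74.8 to 2841 ± 111 CPM (log2 0.20). CYR61, a secreted matricellular protein, gained 217 CPM (log2 0.35). The calls of ACTB, HSP90AA1 and CYR61 were lost when a change above 1.2-fold was required. KRT5 lost 495 CPM, from 1994 ± 75.3 to 1499 ± 40.4 CPM, and CANX went from 1576 ± 24.6 to 1175 ± 24.9 CPM. Among 58 heat shock chaperones 8 rose (13.8%, beside 5.93% of all genes) and 3 fell (5.17%, beside 4.86%). HSPA5 and HSP90AB1 had log2 changes of −0.01 and −0.03 that did not pass (edgeR adjusted p = 0.95 and 0.67).

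Other lists held few calls each, and their shares are to be read against the 5.93% of all genes that rose and the 4.86% that fell. Of protein-coding genes, which the lists hold, 7.04% rose and 5.75% fell. Of genes above 100 CPM, 12.1% rose and 10.2% fell. Nuclear transport had 7 risers (13.0%) and 6 fallers (11.1%) of 54, with the importin IPO5 lower (log2 −0.30) and the exportin CSE1L higher (log2 0.21). Mitochondrial ribosomal proteins had 2 risers (2.56%) and 6 fallers (7.69%) of 78, and MRPL44 fell from 52.9 ± 4.22 to 35.0 ± 1.37 CPM (log2 −0.60). Protein phosphatase subunits had 7 risers (11.5%) and 1 faller (1.64%) of 61, among them the PP2A subunits PPP2R2A (log2 0.39) and PPP2R1B (log2 −0.26). Of 9 tested genes for MARCKS proteins and enzymes of the lipid PIP2, 3 rose and 3 fell (33.3% each). MARCKS, which binds PIP2 at the membrane, rose by a log2 change of 0.42, and its relative MARCKSL1 fell by 0.79. Translation initiation factors had 3 risers (5.66%) and 2 fallers (3.77%) of 53, with EIF3F higher (log2 0.39) and EIF4G1 at −0.01 (edgeR adjusted p = 0.94). In the proteasome list 1 of 47 rose (2.13%) and 2 fell (4.26%).

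**Figure D3:**
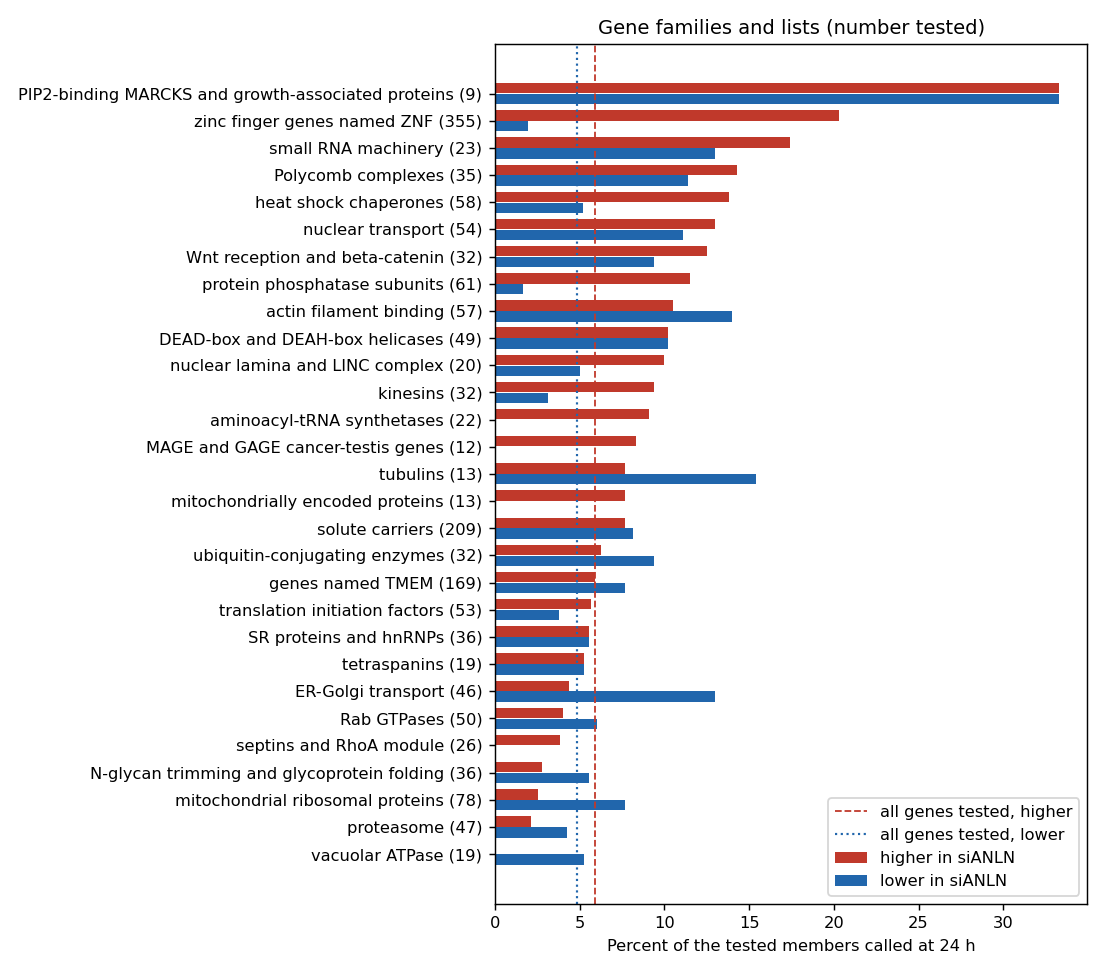
Percent of the tested members of 29 gene families and lists called higher (red) or lower (blue) at 24 h, with the number tested in parentheses. Dashed and dotted lines are the shares over all genes tested, 5.93% higher and 4.86% lower. The members are protein-coding, and of all protein-coding genes tested 7.04% were higher and 5.75% lower. ZNF genes are at 20.3% higher, and the list at the top holds 9 tested genes.

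Non-coding genes gave few calls, as counted above. FAM198B-AS1, an antisense transcript, fell from 7.36, 5.47 and 5.57 CPM to 3.10, 3.88 and 3.50 CPM (log2 −0.81, edgeR adjusted p = 7.4e-04). KTN1-AS1 fell by 0.66 on the log2 scale, a call lost without siANLN replicate 3 (edgeR adjusted p = 0.087) and with DESeq2 (adjusted p = 0.054). KTN1-AS1 overlaps KTN1 on the opposite strand, which was at 3748% of its level and had a log2 change of 0.05. FAM198B-AS1 overlaps FAM198B on the opposite strand (131% of its level, log2 −0.18) and TMEM144 on its own (330%, log2 −0.05). An unstranded count could not separate the reads of opposite strands, and no source used here says whether the counting used strand. Among coding genes below 5 CPM, CHST14, a dermatan sulfotransferase, rose from 2.98, 2.57 and 2.91 CPM to 5.11, 7.88 and 5.83 CPM (log2 1.16, SE 0.19, edgeR adjusted p = 3.5e-06), and ZNF17 rose by the same log2 change.

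Transcripts with the words shown above changed more often, and the share differed with the number of sites and the region. The region of a site is that in the 1 transcript searched per gene, and another transcript of the gene can place it elsewhere, as for the ZNF616 sites. In 11960 searched genes, 7.07% rose and 5.77% fell. For the pair TCGGAGA and CGGAGAA in coding sequence, 5.72% of genes with 0 sites rose, 10.9% with 1, 18.2% with 2 and 40.4% of the 109 genes with 3 or more. Long coding sequences hold more words by length alone, and the part of length in these shares was not tested. In 3′ UTRs 6.47% rose with 0 sites, 21.5% of 326 with 1 and 35.1% of 77 with 2. In 5′ UTRs the shares were 7.10%, 6.17% and 6.67% for 0, 1 and 2 sites. Words are not rare in coding sequence: TCGGAGA lies in that of 8.14% of genes and CGGAGAA in that of 11.3%, against 1.84% and 2.10% in 3′ UTRs.

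The pair TTCCCAA and TCCCAAA went with falls. In 3′ UTRs 3.93% of genes with 0 sites fell, 7.93% with 1, 12.8% with 2 and 15.3% with 3 or more. In coding sequence the shares were 5.16%, 7.03%, 9.43% and 12.9%. TTCCCAA is in 15.6% and TCCCAAA in 20.8% of 3′ UTRs, so most genes that hold them did not change. Long 3′ UTRs hold more words by length alone, and the shares were therefore also read within length bands. Up to 500 bases, 14.1% of genes with a falling word in the 3′ UTR fell and 3.65% of those without. The shares were 14.6% and 4.12% from 500 to 1500 bases, 12.2% and 4.26% from 1500 to 3000, and 7.61% and 3.62% above 3000. For the rising pair, 22.2% of 18 genes with a word in the 3′ UTR rose up to 500 bases, and 3.88% of those without. In the longer bands, in the same order, the shares that rose were 20.5% and 6.29%, 32.0% and 7.84%, and 20.3% and 9.56%. The part of length within a band was not tested. No such bands were made for coding sequence. The 5897 genes with no word of either pair in coding sequence or 3′ UTR rose in 5.27% and fell in 3.60% of cases.

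**Figure D4:**
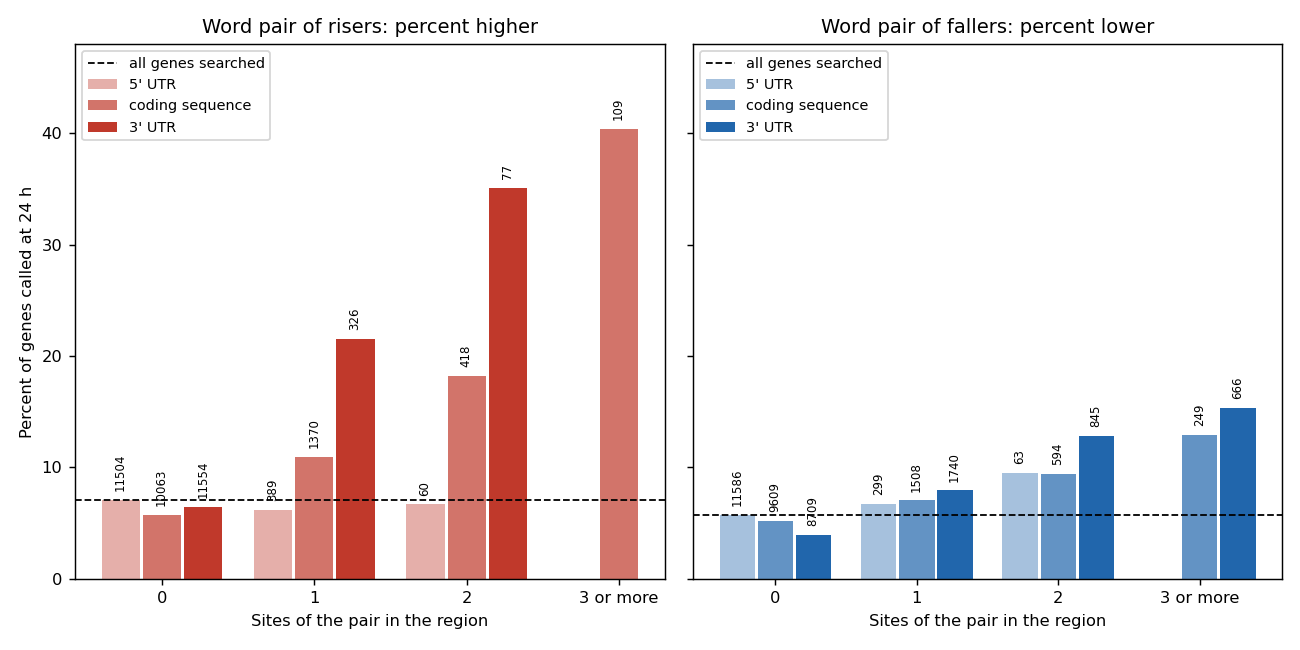
Percent of genes called higher by number of sites of the TCGGAGA and CGGAGAA pair (left) and lower by number of sites of the TTCCCAA and TCCCAAA pair (right), by transcript region. Numbers on the bars are genes, bars of fewer than 20 genes are left out, and the dashed line is the share over all searched genes (7.07% and 5.77%). The words were picked by these changes, and the shares are not split by length of the region.

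Word sites and the ZNF family overlapped in part. Of 77 ZNF genes with a word of the rising pair in coding sequence or 3′ UTR, 31.2% rose, and of 276 without one 17.4% rose. By sites in coding sequence, 15.2% of 33 ZNF genes with 1 rose, 36.0% of 25 with 2 and 60.0% of 10 with 3 or more. Outside the family, 38 of 99 genes with 3 or more sites of the rising pair in coding sequence rose (38.4%), and 5.36% of the 9778 with 0. The pair was picked by these rises, so the shares test nothing. Of the 20 largest rises, 11 hold a word of the rising pair in either region, as do 18.6% of all searched genes, and ZNF616 has 8 sites, OGFR 7 and ZNF267 6 in coding sequence. GANAB, STX12, RGS19, ZNF138 and ZNF100 are among those that hold none. Of the 20 largest falls, 17 hold a word of the falling pair, as do 40.7% of all, and AHNAK2 has 8 sites in coding sequence. TMEM64, TAPBPL and COL20A1 hold none.

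Most early calls were also made at 48 h, in separate libraries and in a table that was processed differently, where 43.6% of all genes tested changed. Of the 871 risers 845 were tested there, and 744 rose (88.0%), 3 fell and 98 did not pass, beside 22.2% of all 48 h genes that rose. Of the 714 fallers 688 were tested, and 550 fell (79.9%), 23 rose (3.34%) and 115 did not pass, beside 21.3% of all that fell. These are 19.7% of the 3778 risers and 15.2% of the 3624 fallers of 48 h. The median log2 change was 0.26 at 24 h and 0.40 at 48 h for the risers, and −0.25 and −0.32 for the fallers. Of 70 ZNF risers tested at 48 h, 63 rose again. Time point and table processing cannot be told apart, and the differences between the times were not tested here.

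Levels of some genes differed greatly between the tables. The siNC mean of ACTG1 was 2575 CPM at 24 h and 1.05 CPM at 48 h, and that of PIP4K2B was 64.8 and 1.38 CPM. The siNC levels of both times were more than 4-fold apart for 17 of the 98 risers and 13 of the 115 fallers that did not pass at 48 h. Of those called the same way, 8 of 744 risers and 9 of 550 fallers were that far apart. For such genes a lack of repeat cannot be told apart from a difference in table processing.

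Some genes did not repeat. GPR89A had a log2 change of 1.12 at 24 h and −0.16 at 48 h (edgeR adjusted p = 0.43). TGM2, a transglutaminase, fell by 0.28 at 24 h and was at −0.00 at 48 h (edgeR adjusted p = 0.92). PLEC, which links keratin filaments to hemidesmosomes, had changes of −0.18 and −0.02 (edgeR adjusted p = 0.54 at 48 h), and its 24 h call was lost with limma on FPKM. Called in opposite directions were 26 genes, all with small 24 h changes. Among them were the orphan receptor GPRC5A (log2 −0.23 and 0.18), the transcription repressor subunit DRAP1 (−0.21 and 0.34), the growth-arrest gene GADD45A (−0.21 and 0.23) and the interferon-induced IFIT2 (0.15 and −0.25), which were chosen after their values were seen.

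**Figure D5:**
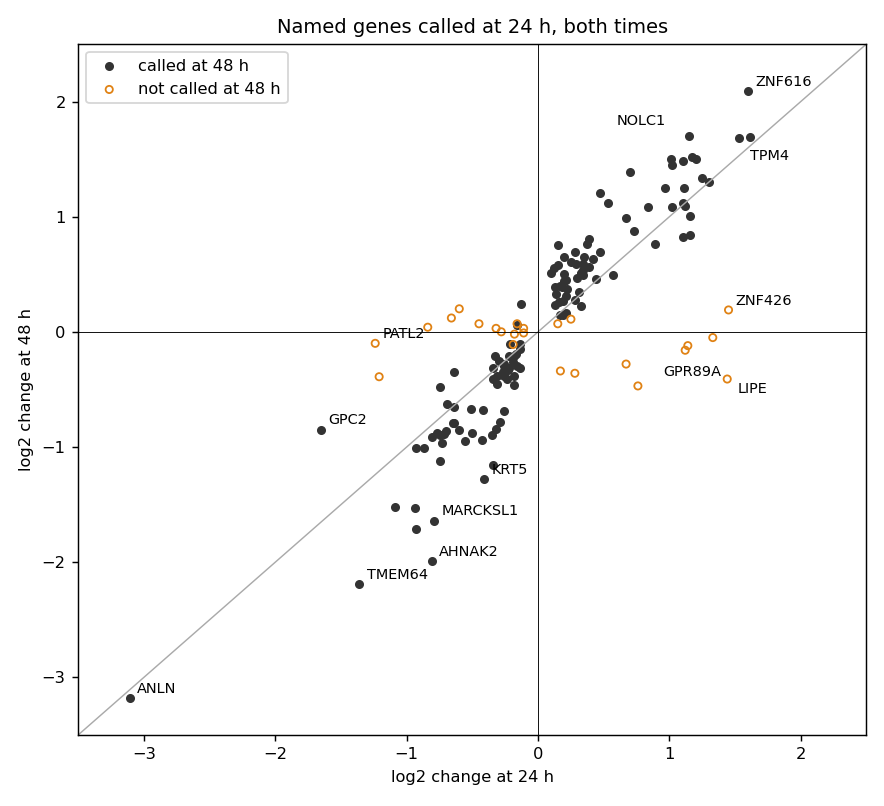
Log2 change of siANLN over siNC at 24 h and at 48 h for the named genes called at 24 h and tested at both times. Filled points were called at 48 h, open points were not, and the line marks equal changes. ZNF616 lies at 1.60 and 2.09, AHNAK2 at −0.81 and −1.99, and GPR89A at 1.12 and −0.16.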

How the data were processed

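Poly(A) RNA of KYSE150 cells was sequenced. Reads were trimmed with cutadapt 1.18, aligned with STAR 2.7.3a and counted with featureCounts, and DESeq2 1.44.0 is named, per the submitters' processing notes. No source used here gives the annotation release or strand setting. The deposited 24 h tables hold whole-number read counts and FPKM per gene, made by the authors, for 58735 gene IDs, all in GENCODE release 29, from which symbols and coordinates (GRCh38) were taken. The deposited counts were the data tested, and the authors' FPKM served only as an alternative.

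Counts were TMM-normalised, filtered with filterByExpr and tested with edgeR 4.0.16 in R 4.3.3 (robust quasi-likelihood F test, two-sided, no covariate, 6 libraries of 24 h). A gene was called at a Benjamini-Hochberg adjusted p under 0.05 over all genes tested. The 48 h table was tested alone in the same way. Levels are CPM, mean ± SD over 3 libraries. SEs derive from the unshrunken log2 change and its F statistic. Replicates differed beyond sampling noise, so none was merged.

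Named were ANLN, the 20 largest rises and falls of called coding genes that averaged 5 CPM or more without overlap of the groups, the 10 with the largest CPM difference each way, the 6 largest non-coding (at least 1 CPM) and the 4 largest low-level changes each way, and from each list up to 4 called members and 2 others. The text states where a gene falls outside this rule. It leaves out 1 gene that was named by it. Of 29 functional lists and 5 marker lists, each list's counts are described without a test. Members, lists and words were chosen with earlier results of these data known. Alternatives were other size factors, filters, thresholds, DESeq2 1.42.0, limma-trend 3.58.1 on log2(FPKM + 0.1) and log2(FPKM + 1), a replicate term and leaving out each library.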

Additional observations from a re-analysis of the deposited data

How the results depend on the processing

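ANLN kept its change under every alternative run. The 1585 calls became 213 when a change above 1.2-fold was required (140 higher and 73 lower, so that 65.7% of calls were higher in place of 55.0%), and 1055 at an adjusted p under 0.01 (448 lower). With limma-trend they were 839 at FPKM + 0.1 (479 higher, 360 lower) and 822 at FPKM + 1 (472 higher, 350 lower). DESeq2 called 473 genes lower in place of 714. The 72 ZNF risers became 35 with the 1.2-fold requirement, 46 at FPKM + 0.1 and 45 at FPKM + 1. The causes of these differences were not tested, but a stricter threshold leaves fewer calls by construction. Leaving out single libraries gave 1285 to 1421 calls, 711 to 795 of them higher and 566 to 630 lower, with 60 to 65 ZNF risers, and ANLN stayed between −3.15 and −3.07. Calls repeated at 48 h numbered 1294, and 1297 with DESeq2 size factors, 1293 with library size alone, 1139 with no filter, 1354 from 5 CPM and 948 with DESeq2, the 5 alternatives run for it.

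Same-numbered siANLN and siNC libraries did not deviate together (r = 0.0269, 0.0109 and −0.0115). With so few libraries this cannot exclude that they were handled in pairs, which the labels do not state. A replicate block called 1772 genes, 959 higher and 813 lower, with 72 ZNF risers.

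Of 161 called named genes, none changed sign. The requirement of a change above 1.2-fold lost 100 of them, and the FPKM tests lost 36 and 39. DESeq2 kept 136, lost 11 and had no result for the rest. Leaving out 1 library lost 13 to 21. The losses were mostly low-level or non-coding genes and small changes, both of list members and of genes named for their CPM difference. Of the latter, ACTB, HSP90AA1, CYR61 and KRT14 were among those lost with the 1.2-fold requirement, whereas AHNAK kept its call. Calls were fewer under 5 CPM, and the part of depth in this was not tested.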
